A study of Mus musculus with 9 samples.

Results

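The insulin-like growth factor (IGF) family was followed here through 10 genes, all found by their symbols among the 37816 genes counted in the mouse cerebellum. They are the ligands Igf1 and Igf2, the receptors Igf1r, Igf2r and Insr, and the binding proteins Igfbp2, Igfbp3, Igfbp4, Igfbp5 and Igfbp6. The rule that chose them was membership of the family, and all 10 passed the filter on low counts that left 19353 genes for testing.

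RNA was sequenced from the cerebellum of 9 mice on a C57BL/6 background, killed at 18 months of age, with 3 mice per group, namely 15Q, 84Q and 84Q+IGF-1. All the mice carried human ATXN3 on a yeast artificial chromosome, so the 15Q controls were transgenic too. The CAG tract of the transgene, whose expansion causes spinocerebellar ataxia type 3, held 15 repeats in the 15Q group and 84 in the other groups. The 84Q+IGF-1 mice received 50 mg/kg IGF-1 intraperitoneally once a week from the age of 9 months, whereas the 15Q and 84Q mice received PBS by the treatment protocol and are listed as untreated in their treatment field. No 15Q mice given IGF-1 were among the samples, so an effect of IGF-1 on any cerebellum and one that needs the expanded repeat cannot be told apart. The sample titles carry a separate mouse identifier for each library.

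As background, IGF-1 and IGF-2 are secreted peptides related to insulin. Both bind the tyrosine kinase receptor encoded by Igf1r, which signals through the insulin receptor substrates, while the Igf2r product carries IGF-2 to lysosomes for degradation and sorts lysosomal enzymes. The binding proteins hold the ligands outside cells and limit or prolong their access to the receptor. Liver is the main source of circulating IGF-1 under growth hormone, and within the brain Igf1 is also made locally by neurons and microglia, whereas Igf2 and Igfbp2 are known as products of the choroid plexus and meninges.

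Library totals ran from 26925001 to 58269196 counts in 15Q, 17482654 to 28843999 in 84Q and 23508574 to 29089855 in 84Q+IGF-1, so depth was not balanced between groups. A level of 3 counts, taken as the floor of detection, came to 0.0515 to 0.172 CPM. CPM are counts divided by the library total, here after scaling with TMM factors. Granule cell genes summed to between 6178 and 7158 CPM and Purkinje cell genes to between 6239 and 6959 CPM, so the cerebellar label was met in each library. Astrocyte genes summed to 3053 to 3601 CPM, oligodendrocyte genes to 3106 to 5107 CPM, endothelial genes to 351 to 401 CPM, mural cell genes to 355 to 388 CPM in 15Q and 289 to 338 CPM in the other 6 libraries, and blood genes to 22.9 to 211 CPM. A list of 12 choroid plexus genes separated 15Q replicates 1 and 3 and 84Q replicate 2, at 516 to 1092 CPM, from the other 6 libraries at 30.3 to 72.2 CPM. Lists of 4 tissues outside the brain were higher in each 15Q library than in any other: liver genes summed to between 26.7 and 46.9 CPM there and between 5.04 and 7.30 CPM elsewhere, intestine genes to 55.3 to 76.3 against 30.8 to 35.0 CPM, epidermis genes to 37.3 to 51.7 against 19.8 to 27.1 CPM, and skeletal muscle genes to 17.4 to 26.5 against 4.09 to 5.69 CPM. Xist, transcribed from the silenced X of females, was at 719 to 949 CPM in 4 libraries (15Q replicates 2 and 3, the first of 84Q and the second of 84Q+IGF-1) and at no more than 1.15 CPM in the other 5, so each group held both sexes. Because bulk tissue was measured, fewer cells of a type and less RNA per cell cannot be told apart in any of the values below.

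Compared per length of transcript (TPM, counts per exon length scaled to a common sum), the binding proteins and receptors were far above the ligands. Igfbp5 led in all 9 libraries with a mean of 214 TPM and a range of 189 to 266 TPM. Igfbp2 and Igf2r followed by mean, both at 44.8 TPM, but Igfbp2 was above Igf2r only in the 3 of 9 libraries high in choroid plexus genes. In the other 6, Igfbp2 was at 20.7 to 32.5 TPM, beside 26.1 to 43.1 TPM for Igfbp6 and 24.4 to 32.8 TPM for Igf1r. Igfbp2 was below Igfbp6 in each of these 6. It thus had no stable place relative to Igf2r, Igfbp6 and Igf1r. Igfbp6 at 34.3 TPM was above Igf1r at 30.1 TPM in 7 of 9 libraries, an order that turned when the longest transcript in place of all annotated exons was used as the length. Insr at 22.6 TPM, Igfbp3 at 15.2 TPM and Igfbp4 at 13.2 TPM came next. Igfbp3 exceeded Igfbp4 in 8 of 9 libraries. Igf1 at 3.11 TPM and Igf2 at 1.94 TPM were lowest, with Igf1 higher in 8 of the 9.

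**Figure D1:**
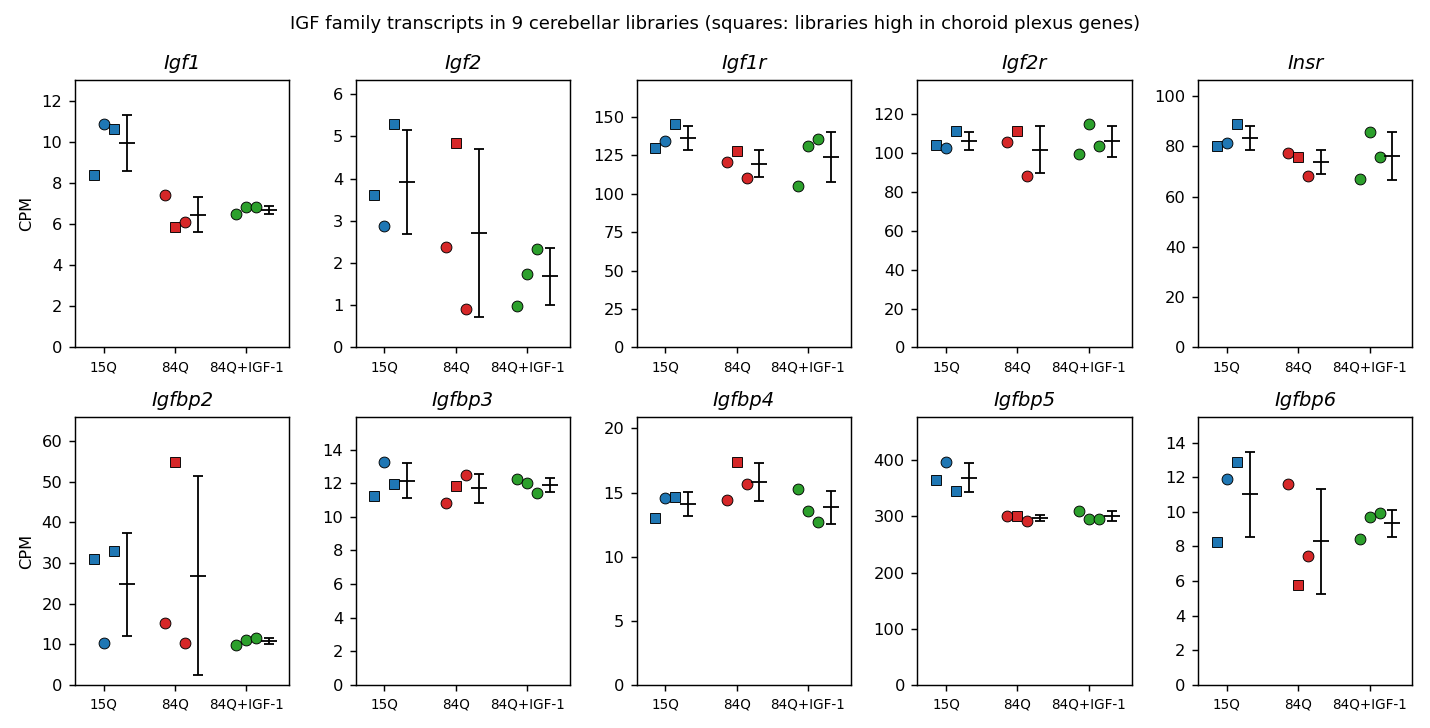
Level of each of the 10 IGF family genes in CPM (linear axes from 0) for the 3 libraries of 15Q (blue), 84Q (red) and 84Q+IGF-1 (green), with the mean and SD of each group in black and squares for the 3 libraries high in choroid plexus genes. Igf1 and Igfbp5 lie higher in the 3 15Q libraries than in the other 6, while Igfbp2 and Igf2 are highest in the squares.

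The question of the comparison with 15Q was how the expanded repeat changes the cerebellar transcriptome. By the study methods, the 15Q mice were donated by a laboratory, whereas the 84Q mice came from The Jackson Laboratory. Repeat length and the source of the mice therefore cannot be told apart in any comparison with 15Q. Within the family, Igf1 was lower in the 84Q group, and it is described first. This gene (ENSMUSG00000020053.18, GRCm38 chromosome 10, 87858265 to 87937042, plus strand) encodes the ligand that was also the injected drug. It measured 8.36, 10.9 and 10.6 CPM in 15Q, 7.42, 5.85 and 6.10 CPM in 84Q, and 6.48, 6.81 and 6.82 CPM in 84Q+IGF-1. Each 15Q library was above all 6 others, and the 84Q and 84Q+IGF-1 libraries overlapped. The 15Q mean was 9.94 ± 1.37 CPM (SD, n = 3), that of 84Q 6.45 ± 0.84 CPM and that of 84Q+IGF-1 6.70 ± 0.20 CPM, on 107 to 620 reads per library.

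Igf1 fell 1.54-fold in 84Q mice relative to 15Q mice, with a log2 fold change of −0.62 (SE 0.13, 95% interval −0.91 to −0.33, edgeR quasi-likelihood adjusted p = 0.0405). Genes were called here where the adjusted p was under 0.1 and levels differed at least 1.5-fold, and Igf1 was the 1 family member of 10 called in this comparison, beside 2.14% of all genes tested. In the 84Q+IGF-1 group the difference from 15Q was −0.57 (SE 0.13, 95% interval −0.86 to −0.28, edgeR adjusted p = 0.0531). This is 1.49-fold lower, just short of the fold threshold, so no family member was called there, where 2.25% of genes were. With 84Q and 84Q+IGF-1 averaged against 15Q, Igf1 fell 1.51-fold, by 0.60 on the log2 scale (SE 0.11, edgeR adjusted p = 0.0141), in a comparison with 3.51% of genes called. The 84Q+IGF-1 mice differed from the 84Q mice by 0.05 (SE 0.14, 95% interval −0.25 to 0.35, edgeR adjusted p = 0.993).

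The Igf1 call in 84Q against 15Q lay close to both thresholds. Among the alternatives, it was lost with Xist as a covariate (log2 fold change −0.53, adjusted p = 0.068), and also without 15Q replicate 2 (−0.55), 15Q replicate 3 (−0.57), 84Q replicate 2 (−0.55) or 84Q replicate 3 (−0.58), while the value stayed negative in all 19 alternatives, at −0.74 to −0.53. Without the 3 libraries high in choroid plexus genes, which left 1 library in 15Q that is taken to vary like the other groups, it was −0.67 with an edgeR adjusted p of 0.303. With 84Q and 84Q+IGF-1 averaged, the call was lost with Xist as a covariate and without the same 4 libraries, 84Q+IGF-1 replicate 1 or the 3 libraries high in choroid plexus genes, at −0.68 to −0.50. Within the libraries high in Xist, Igf1 was at 10.6 and 10.9 CPM in 15Q, 7.42 CPM in 84Q and 6.81 CPM in 84Q+IGF-1. Among those low in Xist it was at 8.36 CPM in 15Q, 5.85 and 6.10 CPM in 84Q, and 6.48 and 6.82 CPM in 84Q+IGF-1. The 15Q libraries were thus the highest within either sex, although each of these cells holds only 1 or 2 mice.

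Several marker lists moved with Igf1. The liver, intestine, epidermis and muscle lists were higher in the same 3 libraries. Of the 13 liver genes, 9 were higher in each 15Q library than in all 6 others, and for intestine, epidermis and muscle these were 10 of 12, 8 of 10 and 9 of 10. Of all tested genes, 6.37% showed this arrangement. The defining markers were low in absolute terms: Alb, the main plasma protein of hepatocytes, was at 1.97 to 4.62 CPM in 15Q and at 0 to 1.08 CPM elsewhere, the intestinal lipid carrier Fabp1 at 5.61 to 9.01 CPM against 0 to 0.0376 CPM, and the basal keratin Krt14 at 3.57 to 7.97 CPM against 0.0879 to 0.517 CPM. The sum of the mural cell list also lay apart, at 355 to 388 CPM in 15Q and 289 to 338 CPM elsewhere. Of its 10 genes, 2 were above all 6 other libraries in each 15Q library. In 84Q against 15Q, 1 of 9 tested mural genes was called lower, beside 2.14% of all genes called. Of 9 astrocyte and Bergmann glia genes, 3 were above all 6 other libraries in each 15Q library, with 0 called in 84Q against 15Q. The sum of that list overlapped, at 3108 to 3601 CPM in 15Q and 3053 to 3484 CPM elsewhere. A list of 13 meningeal fibroblast genes was higher in 15Q too, at 141 to 207 CPM against 86.0 to 127 CPM in 84Q and 79.3 to 104 CPM in 84Q+IGF-1, and its member Col1a1, a fibrillar collagen chain, was at 21.4 to 29.4 CPM against 11.1 to 18.0 CPM. Microglial genes summed to 203 to 248 CPM in 84Q, 173 to 203 CPM in 15Q and 184 to 195 CPM in 84Q+IGF-1, with 0 of 10 called by edgeR in 84Q against 15Q, 5 of 10 higher at an unadjusted p under 0.05, beside 9.04% of all genes, and 1 of 10 lower in each 15Q library than in all 6 others. Csf1r, the receptor on which microglia depend, was at 46.1 to 49.3 CPM in 15Q, 54.2 to 66.0 CPM in 84Q and 47.8 to 49.6 CPM in 84Q+IGF-1. The part of these tissues and cells in the Igf1 difference was not tested.

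**Figure D2:**
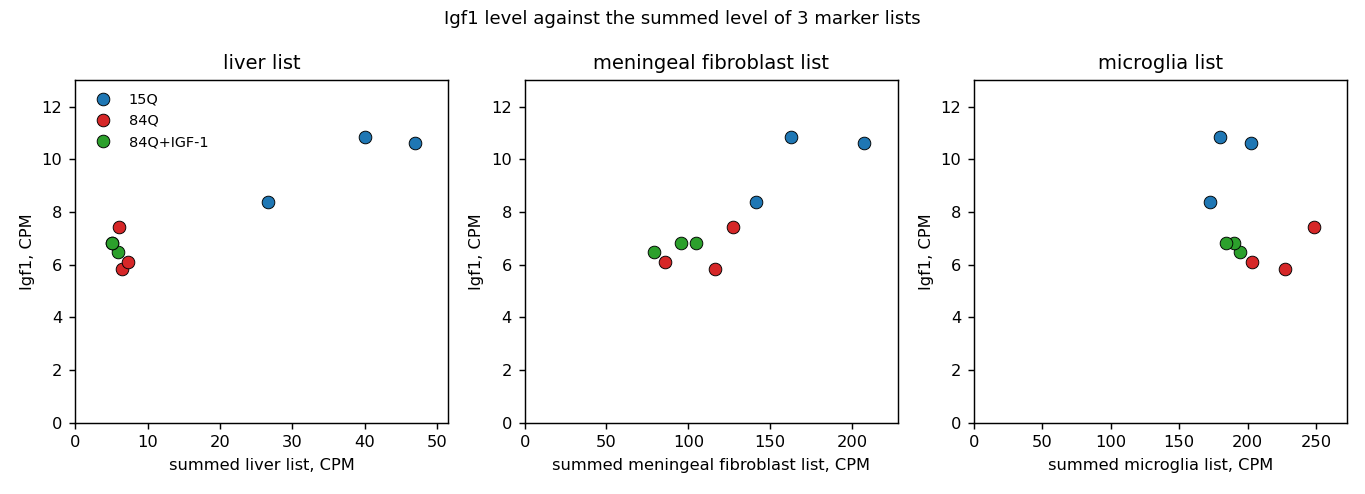
Igf1 in CPM (y axis) against the summed CPM of the liver, meningeal fibroblast and microglia lists (x axes, all linear from 0), 1 point per library with the groups in color. The 15Q points, at 8.36 to 10.9 CPM of Igf1, lie apart from the other 6 along the liver and meningeal lists and not along the microglial list.

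Igf2 (ENSMUSG00000048583.16, chromosome 7, 142650766 to 142666816, minus strand), the fetal growth factor, was the least expressed member. It measured 3.61, 2.88 and 5.28 CPM in 15Q, 2.38, 4.84 and 0.912 CPM in 84Q, and 0.987, 1.73 and 2.33 CPM in 84Q+IGF-1, on as few as 16 reads. The 15Q libraries were above the 84Q+IGF-1 libraries but overlapped the 84Q libraries. The meningeal fibroblast list lay likewise, at 141 to 207 CPM in 15Q and 79.3 to 104 CPM in 84Q+IGF-1. In that comparison 5 of its 13 genes were called lower, beside 2.25% of all genes called. The liver, intestine, epidermis, skeletal muscle and mural cell lists were also higher in 15Q. The part of these lists in the Igf2 difference was not tested. The log2 fold change was −0.52 (SE 0.44, edgeR adjusted p = 0.557) in 84Q and −1.21 (SE 0.45, edgeR adjusted p = 0.196) in 84Q+IGF-1 against 15Q. Between 84Q+IGF-1 and 84Q it was −0.69, with a 95% interval of −1.73 to 0.35. The difference of 84Q+IGF-1 from 15Q passed both thresholds when the 84Q libraries were left out of the fit (edgeR adjusted p = 0.0729). It also passed without 84Q replicate 3 (edgeR adjusted p = 0.0964) and with no filter on low counts (edgeR adjusted p = 3.31e-06). That last setting called 1284 of 37816 genes in this comparison, beside 435 of 19353 in the main fit. With the choroid plexus list as a covariate the Igf2 difference was −0.38 (SE 0.33). Single libraries moved the other differences: 84Q against 15Q was −1.19 without 84Q replicate 2, −0.15 without 84Q replicate 3 and −0.23 without 15Q replicate 3, and 84Q+IGF-1 against 84Q was −0.02 without 84Q replicate 2, −1.06 without 84Q replicate 3 and −0.43 without 84Q+IGF-1 replicate 1. With both groups averaged against 15Q, Igf2 was at −0.87 (edgeR adjusted p = 0.194) and passed both thresholds without 84Q replicate 2, at −1.20 (0.0538). In the annotation used here (GENCODE vM21), 3596 exon bases of Igf2 are shared with the readthrough gene Gm49394 on the same strand. A further 98 are shared with Igf2os on the opposite strand. No level was available for Gm49394, and the annotation used for counting is not given. Whether some Igf2 reads were split or set aside is therefore not known.

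The 3 receptors differed little between groups. Igf1r (ENSMUSG00000005533.10, chromosome 7, 67952827 to 68233668, plus strand), the kinase through which IGF-1 acts, measured 130, 134 and 145 CPM in 15Q, 121, 128 and 110 CPM in 84Q, and 105, 131 and 136 CPM in 84Q+IGF-1. All 84Q libraries were below all 15Q libraries, while 84Q+IGF-1 overlapped both. Its log2 fold change was −0.19 in 84Q against 15Q (SE 0.09, 95% interval −0.39 to 0.01, edgeR adjusted p = 0.281), −0.14 in 84Q+IGF-1 against 15Q (SE 0.09, edgeR adjusted p = 0.455) and 0.05 between the 84Q groups (95% interval −0.15 to 0.25).

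Insr (ENSMUSG00000005534.10, chromosome 8, 3122061 to 3279617, minus strand) encodes the insulin receptor, which can pair with the IGF-1 receptor in hybrids. It measured 80.0, 81.4 and 88.7 CPM in 15Q, 77.2, 75.8 and 68.1 CPM in 84Q, and 66.9, 85.7 and 75.8 CPM in 84Q+IGF-1. As for Igf1r, the 84Q libraries lay below 15Q and the 84Q+IGF-1 libraries overlapped both. The log2 fold change was −0.18 (SE 0.08, edgeR adjusted p = 0.274) in 84Q and −0.13 (SE 0.08, edgeR adjusted p = 0.439) in 84Q+IGF-1 against 15Q. In TPM, Igf1r was between 1.25 and 1.46 times Insr in the 9 libraries, and the ratio averaged 1.34, 1.33 and 1.34 in the 3 groups.

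Igf2r (ENSMUSG00000023830.14, chromosome 17, 12682406 to 12769664, minus strand) was the most even of the receptors between groups, with 103 to 112 CPM in 15Q, 88.0 to 111 CPM in 84Q and 99.6 to 115 CPM in 84Q+IGF-1. The groups overlapped, with log2 fold changes of −0.06 (95% interval −0.24 to 0.12), −0.0029 (−0.18 to 0.18) and 0.06 (−0.12 to 0.24) in the comparisons of 84Q with 15Q, of 84Q+IGF-1 with 15Q and of 84Q+IGF-1 with 84Q. Its antisense transcript Airn, which silences the paternal copy of Igf2r in many tissues, shares no exon bases with it and was at 9.92 to 21.7 CPM.

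**Figure D3:**
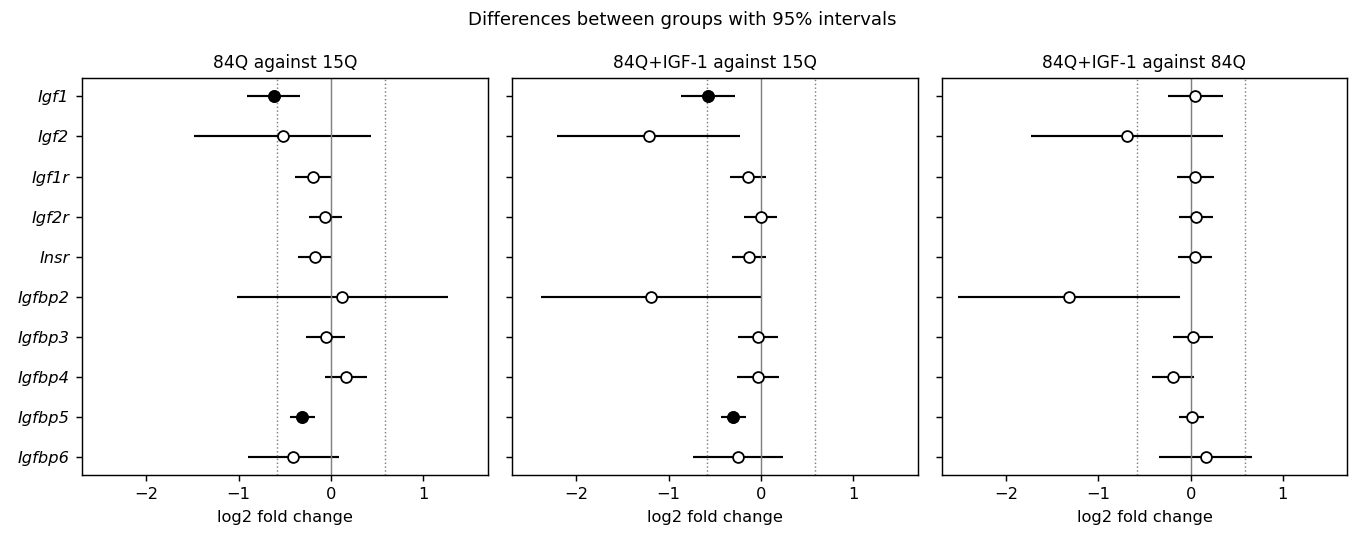
Log2 fold change (x axis) of the 10 genes in 3 comparisons, with 95% intervals from the edgeR fit; filled points have an adjusted p under 0.1, and dotted lines mark a fold change of 1.5. Igf1 and Igfbp5 are filled against 15Q in both 84Q groups, at −0.62 and −0.57 for Igf1 and −0.31 and −0.30 for Igfbp5, and no point is filled in the comparison of 84Q+IGF-1 with 84Q.

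Igfbp5, the most abundant family transcript, was the other member whose 15Q libraries all lay above the rest. Its product binds IGF-1 tightly and also attaches to extracellular matrix. Igfbp5 (ENSMUSG00000026185.8, chromosome 1, 72857932 to 72874884, minus strand) measured 366, 398 and 345 CPM in 15Q, 301, 300.0 and 292 CPM in 84Q, and 310, 295 and 295 CPM in 84Q+IGF-1. The 84Q groups were nearly level with each other, and the lowest 15Q library exceeded the highest of the other 6 by more than the spread within either 84Q group. The log2 fold change against 15Q was −0.31 in 84Q (SE 0.06, 95% interval −0.45 to −0.18, edgeR adjusted p = 0.0291) and −0.30 in 84Q+IGF-1 (SE 0.06, 95% interval −0.44 to −0.16, edgeR adjusted p = 0.0332). The 84Q+IGF-1 group differed from 84Q by 0.01 (95% interval −0.12 to 0.15). At 1.24-fold and 1.23-fold lower, Igfbp5 passed the threshold on adjusted p but not the one on fold change, and so was not called. Its adjusted p rose past 0.1 in both comparisons without 15Q replicate 2 (0.154 in each) and without the 3 libraries high in choroid plexus genes, and in 84Q against 15Q without 84Q replicate 3 (0.107), with the value at −0.42 to −0.24 throughout. The liver, intestine, epidermis, skeletal muscle, mural cell and meningeal fibroblast lists, whose sums are given with Igf1, separated the same 3 15Q libraries from the other 6, and their part in the Igfbp5 difference was not tested.

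With the fold threshold set aside, 2 of 10 members, Igf1 and Igfbp5, passed an adjusted p under 0.1 in 84Q against 15Q, beside 4.8% of all genes, and the same 2 in 84Q+IGF-1 against 15Q, beside 3.67%. Counting libraries instead, 4 members (Igf1, Igf1r, Insr and Igfbp5) had all 84Q libraries below all 15Q libraries, an arrangement that 13.5% of tested genes showed. For 84Q+IGF-1 against 15Q these were 3 members (Igf1, Igf2 and Igfbp5), beside 13% of tested genes, and no member was arranged the other way in either comparison. Both comparisons use the same 15Q libraries and are therefore not independent. Igf1 and Igfbp5 were the 2 members with 15Q above all 6 other libraries, beside 6.37% of genes.

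Igfbp2 (ENSMUSG00000039323.18, chromosome 1, 72824503 to 72852474, plus strand) is the neighbor of Igfbp5, 5457 bp away with both genes pointing at each other, but its levels went a different way. Its product is the main IGF binding protein of cerebrospinal fluid. The values were 30.9, 10.2 and 33.0 CPM in 15Q, 15.2, 54.9 and 10.3 CPM in 84Q, and 9.82, 11.1 and 11.4 CPM in 84Q+IGF-1. The 3 high libraries, at 30.9 to 54.9 CPM against 9.82 to 15.2 CPM in the other 6, are the 3 that were high in choroid plexus genes. These come from different groups, and none is from 84Q+IGF-1.

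The promoters of this pair are shown because the genes are neighbors with different patterns over the libraries. Each sequence is the stretch of the RefSeq promoter window (GRCm38.p6) that precedes the first annotated exon, read along the strand of the gene. It lies at chr1:72824230-72824479 on the plus strand for Igfbp2, and at chr1:72874885-72875115 on the minus strand for Igfbp5. Capitals mark the GC box GGGCGG in the first and the TATA-like TATTTAA in the second, searched on both strands together with TATAAA, with CACGTG and with CCAAT.

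Igfbp2: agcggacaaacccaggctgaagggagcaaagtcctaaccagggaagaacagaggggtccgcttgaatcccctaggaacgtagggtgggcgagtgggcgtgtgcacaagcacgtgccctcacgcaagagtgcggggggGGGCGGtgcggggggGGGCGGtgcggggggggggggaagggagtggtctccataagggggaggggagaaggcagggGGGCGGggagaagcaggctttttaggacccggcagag

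Igfbp5: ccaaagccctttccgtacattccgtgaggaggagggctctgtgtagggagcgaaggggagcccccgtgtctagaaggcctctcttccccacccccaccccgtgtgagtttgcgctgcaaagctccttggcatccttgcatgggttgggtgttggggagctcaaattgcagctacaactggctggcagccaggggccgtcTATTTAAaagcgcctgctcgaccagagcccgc

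The Igfbp2 stretch of 250 bases had a GC content of 67.2%, 14 CpG and 3 GC boxes, with 1 CACGTG and none of the other motifs. The Igfbp5 stretch of 231 bases had a GC content of 60.6%, 10 CpG and 1 TATTTAA, and none of the others. Of 32851 mouse promoter windows of 250 bases, 32.7% held GGGCGG, 4.18% TATTTAA, 12.4% TATAAA, 6.02% CACGTG and 33.8% CCAAT, and the medians were 52.4% GC and 6 CpG. A match of letters is a description of the window and not a bound site.

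Ttr, the thyroxine carrier made in bulk by the choroid plexus, was at 340 to 832 CPM in these 3 libraries and at 0.855 to 19.8 CPM in the other 6. Igfbp2 averaged 3.49 times and Igf2 2.45 times their level in the others, at 3.61 to 5.28 against 0.912 to 2.88 CPM for Igf2. The remaining 8 members overlapped between the 3 and the 6. In the fit with the mean log2 level of the choroid plexus list as a covariate, each doubling of the list came with 0.49 (SE 0.03) on the log2 scale for Igfbp2 and 0.33 (SE 0.07) for Igf2, and with between −0.10 and 0.04 for the others.

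**Figure D4:**
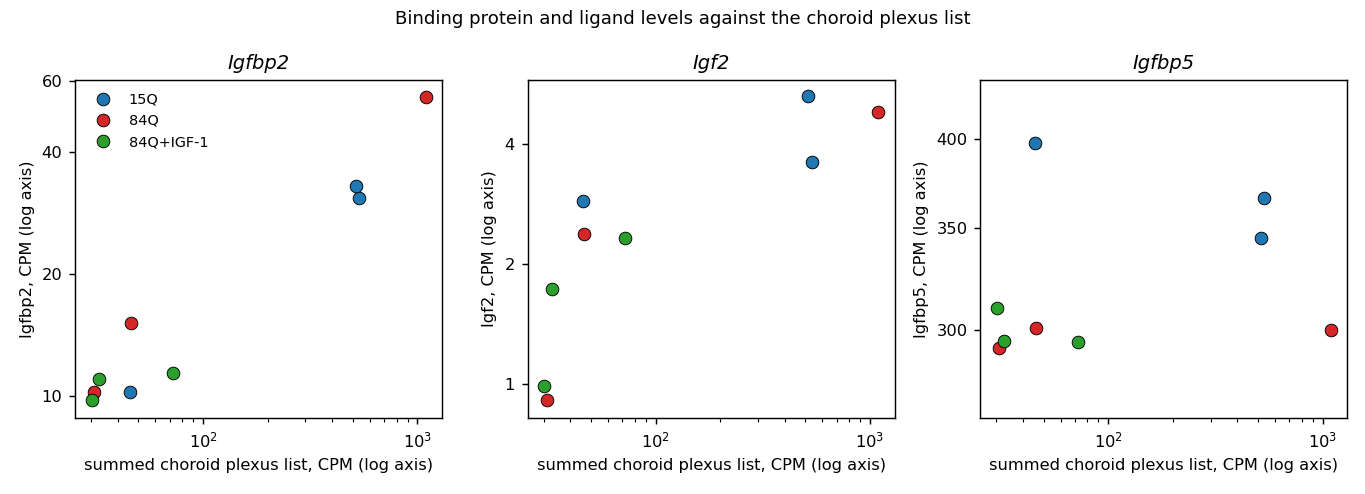
Igfbp2, Igf2 and Igfbp5 in CPM against the summed CPM of the 12 choroid plexus genes, both axes logarithmic, 1 point per library. Igfbp2 and Igf2 are highest in the 3 libraries with 516 to 1092 CPM of choroid plexus genes, whichever their group, whereas Igfbp5 follows the group.

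Group differences in Igfbp2 moved with these libraries, and that of 84Q+IGF-1 from 15Q turned from negative to positive without them. Against 15Q, Igfbp2 had a log2 fold change of 0.12 in 84Q (SE 0.52, edgeR adjusted p = 0.927) and −1.19 in 84Q+IGF-1 (SE 0.55, edgeR adjusted p = 0.281). For 84Q+IGF-1 against 84Q it was −1.32 (SE 0.55, unadjusted p = 0.0348, adjusted p = 0.969), the 1 family value of 10 under an unadjusted 0.05 in that comparison, beside 4.68% of all genes. With the 3 libraries left out, these values were 0.34 (SE 0.22), 0.08 (SE 0.21) and −0.25 (SE 0.17). Without 84Q replicate 2 alone, 84Q against 15Q turned to −0.93 and 84Q+IGF-1 against 84Q was −0.25. With the choroid plexus covariate they were 0.56 (SE 0.12, edgeR adjusted p = 0.051), 0.21 (SE 0.14) and −0.35 (SE 0.13). The part of choroid plexus tissue in the dissections in these differences was not tested.

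Igfbp6 (ENSMUSG00000023046.6, chromosome 15, 102144362 to 102149511, plus strand), whose product prefers IGF-2, varied within the groups. It measured 8.25, 11.9 and 12.9 CPM in 15Q, 11.6, 5.76 and 7.47 CPM in 84Q, and 8.45, 9.68 and 9.90 CPM in 84Q+IGF-1. The groups overlapped, and within 15Q and within 84Q the libraries high in Xist were the higher ones. For 84Q against 15Q it had a log2 fold change of −0.41 (SE 0.23, 95% interval −0.90 to 0.09, edgeR adjusted p = 0.348). Without 84Q replicate 1, the 1 library of its group high in Xist, it was −0.75 (SE 0.20) and passed both thresholds, with an edgeR adjusted p of 0.078. It was −0.56 without 15Q replicate 1, but −0.19 without 84Q replicate 2 and −0.27 without 15Q replicate 3 (edgeR adjusted p = 0.656 and 0.693), and −0.24 with Xist as a covariate.

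Igfbp3 and Igfbp4 were even. Igfbp3 (ENSMUSG00000020427.11, chromosome 11, 7206086 to 7213923, minus strand), the main carrier of IGF-1 in blood, was at 11.2 to 13.3 CPM in 15Q, 10.8 to 12.5 CPM in 84Q and 11.4 to 12.3 CPM in 84Q+IGF-1. Its 95% intervals were −0.27 to 0.16 in 84Q and −0.24 to 0.18 in 84Q+IGF-1 against 15Q, and −0.19 to 0.25 between the 84Q groups. Igfbp4 (ENSMUSG00000017493.12, chromosome 11, 99041244 to 99054392, plus strand), which is cut by the protease of Pappa, was at 13.0 to 14.7, 14.4 to 17.4 and 12.7 to 15.3 CPM in the 3 groups. Its log2 fold change was 0.16 (SE 0.10, edgeR adjusted p = 0.417) in 84Q against 15Q and −0.19 (SE 0.10, edgeR adjusted p = 0.969) in 84Q+IGF-1 against 84Q.

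Summed over the 5 binding proteins, the pool was 362 to 386 TPM in 15Q, 266 to 363 TPM in 84Q and 280 to 287 TPM in 84Q+IGF-1. Igfbp5 made up between 54.0% and 73.6% of it and Igfbp2 between 6.16% and 32.1%. The 84Q library with the highest pool, replicate 2, had the largest share of Igfbp2, and the other 84Q libraries were at 298 and 266 TPM.

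**Figure D5:**
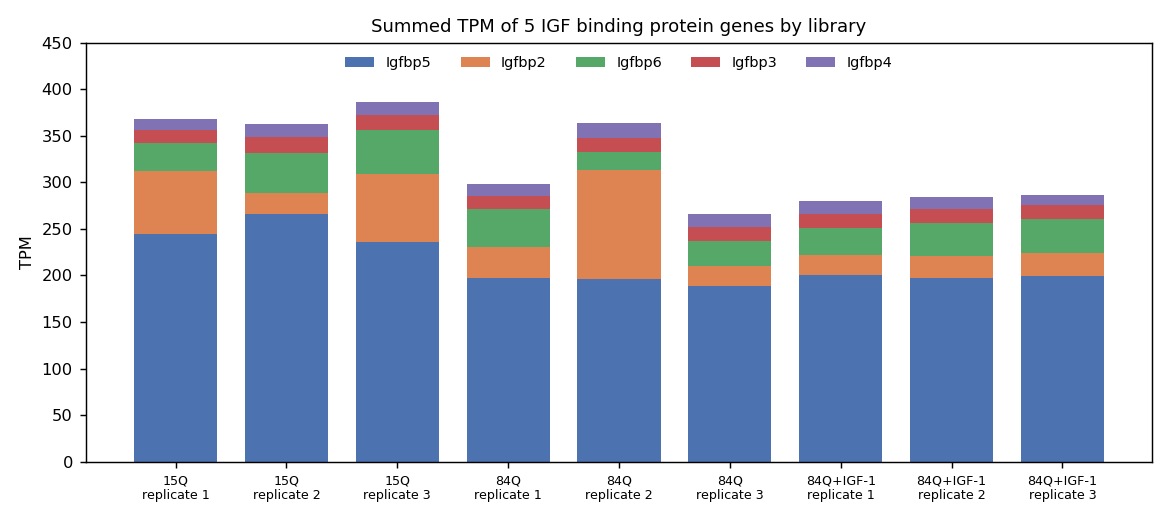
Summed TPM of Igfbp5, Igfbp2, Igfbp6, Igfbp3 and Igfbp4 in each library (stacked bars from 0). Igfbp5 is the largest part in every library, and the Igfbp2 part is widest in 84Q replicate 2.

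Of 33 other genes of the IGF axis (insulin receptor substrates, adaptors, proteases, other carriers and binding proteins of Igf2 RNA), 32 were in the counts and 27 were tested. Of these, 1 was called, lower, in each comparison with 15Q, and none between the 84Q groups, beside 2.14% of all genes in 84Q against 15Q, 2.25% in 84Q+IGF-1 against 15Q and 3.51% with both averaged, so the list was near the background. That gene was Igf2bp2, which encodes an RNA binding protein named for its hold on Igf2 mRNA. It measured 1.04, 1.64 and 1.69 CPM in 15Q, 0.586, 0.484 and 0.513 CPM in 84Q, and 0.472, 0.414 and 0.377 CPM in 84Q+IGF-1, on 9 to 99 reads. All 15Q libraries were above the other 6, as they were for the liver, intestine, epidermis, skeletal muscle, mural cell and meningeal fibroblast lists, whose part in this difference was not tested. It fell 2.77-fold in 84Q, with a log2 fold change of −1.47 (SE 0.27, edgeR adjusted p = 0.0203), and by 1.81 on the log2 scale in 84Q+IGF-1 (SE 0.28, edgeR adjusted p = 0.00483), with −0.34 (95% interval −1.05 to 0.37) between the 84Q groups. The call in 84Q against 15Q was lost without 15Q replicate 2 or 15Q replicate 3, at −1.38 and −1.34, and without the 3 libraries high in choroid plexus genes, at −1.55 (edgeR adjusted p = 0.309).

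The median log2 fold change of the 27 genes was −0.10 in 84Q, −0.05 in 84Q+IGF-1 against 15Q and −0.03 between the 84Q groups, beside −0.18, −0.19 and 0.04 for the 10 family members and −0.00192, −0.00512 and −0.00328 over all tested genes. The 4 most abundant of the others were Lrp1 (a receptor that takes up binding proteins and many other ligands) at a mean of 1220 CPM, the adaptor Gigyf1 at 216 CPM, the insulin receptor substrate Irs2 at 130 CPM, and the protease Htra1, which cleaves binding proteins, at 119 CPM. In 84Q against 15Q their log2 fold changes were −0.06 (SE 0.08), −0.07 (SE 0.06), 0.09 (SE 0.08) and 0.24 (SE 0.08). Htra1 had an edgeR adjusted p of 0.134 in 84Q and 0.126 in 84Q+IGF-1, and with both averaged against 15Q it was 0.24 (SE 0.07, edgeR adjusted p = 0.0628), under the fold threshold.

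Over the 10 members, 8 had a log2 fold change below 0 in 84Q against 15Q, beside 50.3% of all genes, and 10 in 84Q+IGF-1 against 15Q, beside 51.1%. Of the 10, Igf2r at −0.0029 changed sign in 10 of 19 alternatives, Igfbp4 in 3, Igfbp2 in 2 and Igfbp3 in 1. In 84Q+IGF-1 against 84Q, 3 were below 0, beside 51.2% of all genes, and 7 above, and none passed an adjusted p under 0.1. That last comparison had 0 genes called in all by edgeR, with 905 at an unadjusted p under 0.05, 6 by the DESeq2 Wald test, 168 by edgeR with no filter on low counts, and 9 by edgeR without 84Q replicate 2. No family member had 84Q+IGF-1 libraries wholly above or below the 84Q libraries, an arrangement seen in 8.46% of tested genes.

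The genes whose log2 CPM followed each member most closely over the 9 libraries, among 12113 tested genes with a mean of at least 5 CPM, are given as a description, since libraries with the same depth, dissection and sex enter each correlation. For Igf1 they were C3, the central complement component (Pearson r = 0.99), Anpep, an aminopeptidase that is on the intestine list (r = 0.96), and the pseudogene Zkscan7 (r = 0.95). For Igf2 they were Bmp6, Sgms2 and Dock6 (r = 0.99 to 0.98), and for Igfbp2 they included the lysophospholipase Enpp2 and Abca4 (r = 0.98 for both). Igfbp5 was followed by the processed pseudogenes Gm16470 and Gm2546 (r = 0.98 and 0.94) and by Slc30a10, a manganese exporter (r = 0.94), so its close companions were not those of its neighbor Igfbp2. Igf1r ran with Tatdn3, Zzz3 and Zfp106 (r = 0.99 to 0.97), Insr with Pdpk1, Ptprg and Lrrc58 (r = 0.98), Igf2r with Cacna1c, Gm16183 and Huwe1 (r = 0.97 to 0.96), and Igfbp6 with Zhx1, Atf2 and Zfp458 (r = 0.97). The closest genes to Igfbp3 were Plagl2, Usp42 and Zfp84 (r = 0.92 to 0.91), and to Igfbp4 they were Zbtb7b, Stum and Pqlc2 (r = 0.94 to 0.89).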

How the data were processed

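The authors trimmed the strand-specific, paired-end reads of 9 cerebella (Trimmomatic 0.36), aligned them to the mouse genome (mm10, HISAT2 2.2.0) and counted them per gene with featureCounts; the deposited values are these raw counts. The annotation and the strand setting of the counting are not given in the sources used here.

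Members were matched by gene symbol through GENCODE vM21 (GRCm38). The members, gene lists and tests were chosen with earlier results of these data known. Genes named are the members, called genes and the 5 most abundant others of the axis list, the 3 most similar genes per member, and set markers of the cell type lists; Airn, Gm49394 and Igf2os were added after their values were seen, and 2 genes that this rule names are not reported here. The cell type lists held 5 to 13 genes each.

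Differences were tested in edgeR 4.0.16 (R 4.3.3) by the quasi-likelihood test in 1 fit to all 9 libraries, with TMM factors, filterByExpr and Benjamini-Hochberg adjustment over 19353 genes. Tests are two-sided, and the standard error comes from the F statistic. The p-values set a group difference against the spread between the mice sequenced, as estimated in that fit. DESeq2 1.42.0 was an alternative. TPM used the union of exons, and log2 CPM a prior count of 2. The floor of 3 counts covers counting error only. The chi-square per gene between replicates of a group was 9.58 to 16.1, where noise alone gives 1, so none was a repeat deposit. The steps were tested on simulated data.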

Additional observations from a re-analysis of the deposited data

How the results depend on the processing

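Members called in 84Q against 15Q (1 as reported) were 0 with a replicate block, with Xist as a covariate or without the 3 libraries high in choroid plexus genes, and 2 with no fold change threshold; leaving out 1 library gave 0 to 2. In 84Q+IGF-1 against 15Q (0 as reported) they were 2 with no filter on low counts (Igfbp2, Igf2), 2 with no fold threshold, 1 with the choroid plexus covariate (Igf1) and 1 with only the groups compared (Igf2); leaving out 1 library gave 0 to 1. In 84Q+IGF-1 against 84Q (0) there was 1 with no filter (Igfbp2). With both groups averaged against 15Q (1), there were 2 with no filter, 2 with no fold threshold, 0 with the Xist covariate and 0 without the 3 libraries; leaving out 1 library gave 0 to 2. Other axis genes called were 2 with no filter and 0 without the 3 libraries in 84Q against 15Q (1), 4 with no filter in 84Q+IGF-1 against 15Q (1), and 2 with no fold threshold in the average (1); leaving out 1 library gave 0 to 1 in the first and 1 to 2 in the last. The causes were not tested.

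Of 825 alternative fold changes, 46 changed sign, 40 of them within 1 SE of 0 in both fits. The others were Igf2r in 84Q+IGF-1 against 15Q with the choroid plexus covariate (0.10) and Igfbp2, which became 0.21 with that covariate and 0.083 without the 3 libraries in 84Q+IGF-1 against 15Q, 0.39 and 0.21 in the average, and −0.93 without 84Q replicate 2 in 84Q against 15Q, where leaving out 1 library gave −0.93 to 0.50.

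Replicate numbers do not pair the mice: deviations of same-numbered libraries correlated at −0.309 to 0.0788. With the replicate block, the genes called went from 414 to 242 in 84Q against 15Q and from 435 to 271 in 84Q+IGF-1 against 15Q. With no filter, calls among 37816 genes numbered 1284 for 84Q+IGF-1 against 15Q, 168 for 84Q+IGF-1 against 84Q and 1568 for the average. All genes called in 84Q against 15Q also came to 1025 with no filter, 243 at an adjusted p under 0.05, 928 with no fold threshold, 274 with Xist and 94 without the 3 libraries. The last alternative was chosen after seeing the data. A fit to only the groups compared does not exist for the average, which uses all libraries. At 16 to 309 reads, Igf2 was the member least precisely counted.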
